A study of Mus musculus with 8 samples.

Results

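The 10 genes described here mark or serve resident macrophages of the mouse cochlea. They are C1qa, C1qb, C1qc, Csf1r, Cx3cr1, Adgre1, Cd68, Mrc1, Cd163 and Aif1. They were taken by symbol from the 21895 genes of the FPKM table (fragments scaled to transcript length and to the size of the library). All 10 were found and all 10 passed a mean of 0.5 FPKM, as did 14990 genes in total. The samples were 8 cochlear RNA libraries, 4 from miR-29a wild-type (WT) mice and 4 from miR-29a-/- (KO) mice, both on a C57BL/6 background. The knockout came from heterozygous breeding with no Cre driver or tissue restriction named, and mice of both sexes were used with no treatment named. The age of the mice was 21 days by the series record and 2 months by the study's methods, the same for both genotypes within each source. Neither source states that each library came from a separate animal, so p-values measure the spread between these libraries only.

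Macrophages enter the cochlea during development and persist in the spiral ligament, the stria vascularis, around vessels and among the spiral ganglion neurons. Their survival depends on the receptor CSF1R and its ligands CSF1 and IL-34, and the transcription factor PU.1 (gene Spi1) sets up much of their gene programme. C1QA, C1QB and C1QC are the chains of C1q, which starts the classical complement pathway. MRC1 and CD163 are scavenger receptors of perivascular and other tissue-resident macrophages, and CX3CR1 binds fractalkine, a ligand made by neurons and other cells. Bone marrow of the temporal bone surrounds the cochlea and holds macrophages and monocytes of its own.

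The KO targets miR-29a, 1 member of the miR-29 family. The mature sequences of the family are shown because they share a seed, bases 2 to 8, printed in capitals. They come from RefSeq on GRCm38.p6. The miR-29a-3p gene copy lies at chr6:31062673-31062694 on the minus strand, miR-29c-3p lies at chr1:195037600-195037621 on the plus strand, and miR-29b-3p has a copy beside each of them.
miR-29a-3p: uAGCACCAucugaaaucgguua
miR-29b-3p: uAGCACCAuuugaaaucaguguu
miR-29c-3p: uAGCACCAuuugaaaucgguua
The letters that pair with this seed, TGGTGCT on the transcript strand, were in the longest annotated 3' untranslated region of 0 of the 10 genes. Over the tested genes, 2294 of 14832 with such a region held them, or 15.5%. The regions searched ranged from 118 bases in Aif1 to 2587 bases in Cx3cr1, and the search covered these letters in these regions only. The deleted RNA itself and the miR-29b copy beside it were not analysed here, and no check of genotype was made from them.

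Promoter windows of 250 bases before to 50 bases after the start were matched in RefSeq (GRCm38.p6) for 7 of the 10 genes, leaving C1qa, Csf1r and Adgre1 without an entry. They were searched for GAGGAA, the core letters bound by PU.1, on both strands. Among them 5 of 7 held it, with 8 matches in all, against 9289 of all 32851 windows, or 28.3%. Stretches of 30 bases are printed for the 5 genes, each on the strand of its gene, with the core in capitals (TTCCTC where it lies on the other strand).
C1qb, chr4:136886213-136886242, minus strand: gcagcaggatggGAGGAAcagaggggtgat
C1qc, chr4:136893090-136893119, minus strand: gacggcagacacTTCCTCattttggcacac
Cd68, chr11:69666378-69666407, minus strand: tttcttaccaatGAGGAAagggcttcccat
Mrc1, chr2:14229367-14229396, plus strand: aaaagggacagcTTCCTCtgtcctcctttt
Aif1, chr17:35176042-35176071, minus strand: ataggcacccagTTCCTCcatcctattgtt
Counted from the start of transcription, the first base of the printed core was at -30 in C1qb, -193 in C1qc, -225 in Cd68, -35 in Mrc1 and -7 in Aif1. Mrc1 held 3 cores and Cd68 held 2, while the windows of Cd163 and Cx3cr1 held none. A match is a run of letters and no sign of binding.

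The tissue was cochlear by its markers in every library. The summed level of 13 cochlear markers lay between 1586 and 2457 FPKM in WT and between 1717 and 2176 FPKM in KO, and Coch, which encodes cochlin, lay between 1231 and 1927 FPKM over all 8. All 8 macrophage markers used as a check, among them Ptprc, Tyrobp and Spi1, passed the filter on low values. WT1 stood apart from the other libraries. Its 10 most abundant genes held 17.6% of the summed FPKM, against 8.50% to 10.9% elsewhere. The gene Gm8797 alone measured 17875 FPKM in WT1, against 0.715 to 232 FPKM elsewhere. Neutrophil markers in WT1 summed to 10155 FPKM against 54.4 to 962 FPKM in the other WT libraries. Among the KO libraries, KO4 had the lowest neutrophil sum at 1776 FPKM and was the library most like WT4 over all genes (Pearson's r = 0.963 on log2 values). Values for the 10 genes that leaving out WT1 or KO4 moved most, and list counts that changed without WT1, are given both ways.

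In WT cochleae the C1q chains and Csf1r were the most abundant of the 10 genes. Mean FPKM (± SD, n = 4) was 22.9 ± 9.19 for C1qb, 19.0 ± 3.37 for C1qa, 16.8 ± 7.50 for Csf1r and 13.9 ± 2.26 for C1qc. Cd68 followed at 10.9 ± 12.1, a mean carried by WT1, then Mrc1 at 6.43 ± 2.13 and Adgre1 at 5.21 ± 2.67. Neighbours in this order overlapped in their spread. A gap came next, since Cd163 at 1.66 ± 1.04, Aif1 at 1.58 ± 0.586 and Cx3cr1 at 1.52 ± 0.359 were all below every library of Adgre1 and did not differ among themselves beyond their spread. In KO cochleae Cd163 averaged 8.02 ± 4.40 FPKM, beside Adgre1 at 6.08 ± 1.84. Cd163 was above Adgre1 in KO1, KO2 and KO3 and below it in KO4. Aif1 (2.72 ± 0.741) and Cx3cr1 (2.99 ± 2.38) still closed the order.

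**Figure D1:**
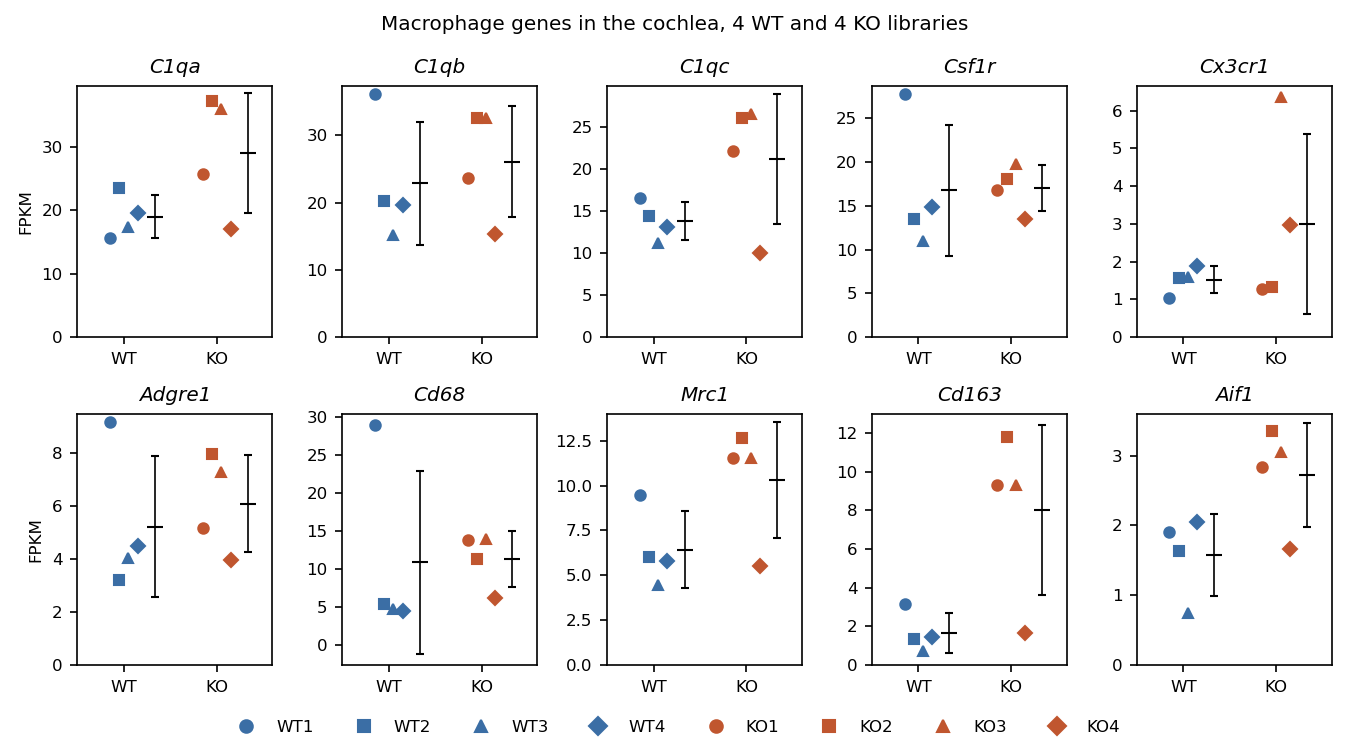
FPKM of the 10 macrophage genes, 1 panel a gene, with 4 WT libraries (blue) and 4 KO libraries (orange) as points, the symbol giving the replicate number, and the group mean ± SD as bars. For Cd163 and Mrc1, KO1 to KO3 lie above every WT library while KO4 lies among the WT libraries, and for Cd68 WT1 lies above all the others at 28.99 FPKM.

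The genes for the C1q chains lie side by side on chromosome 4, within 18675 bases (GRCm38). By rising coordinate the order is C1qb, C1qc, C1qa, all on the minus strand, and no other annotated exon overlaps theirs. C1qa, the A chain, measured 15.6, 23.5, 17.4 and 19.5 FPKM in WT1 to WT4 and 25.8, 37.2, 36.0 and 17.1 FPKM in KO1 to KO4. KO1, KO2 and KO3 were above every WT library and KO4 was inside the WT range. The log2 fold change of KO over WT was 0.56 ± 0.26 (SE), short of the threshold of an unadjusted limma p under 0.05 (adjusted p = 0.947). Without KO4 it was 0.79 ± 0.20 (SE), past that threshold. Leaving out each other library in turn gave 0.42 (without KO2) to 0.67 (without WT2), past the threshold only without WT2. Without WT1 it was 0.47 ± 0.27 (SE). In bulk RNA, a change in the number of cells of a type and a change in RNA per cell cannot be told apart, here and for every gene that follows.

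C1qc, the C chain, measured 16.6, 14.5, 11.2 and 13.1 FPKM in WT1 to WT4 and 22.1, 26.1, 26.6 and 10.1 FPKM in KO1 to KO4. KO1, KO2 and KO3 were again above all WT libraries, but KO4 was the lowest of the 8. Its log2 fold change was 0.53 ± 0.31 (SE), not past the threshold (limma, adjusted p = 0.947). Without KO4 it was 0.85 ± 0.17 (SE), past the unadjusted threshold but not after adjustment (limma, adjusted p = 0.627). Leaving out each other library in turn gave 0.39 (without KO3) to 0.62 (without WT1), past the threshold in none of these fits. C1qb, the B chain, measured 36.2, 20.3, 15.2 and 19.7 FPKM in WT1 to WT4 and 23.7, 32.6, 32.5 and 15.4 FPKM in KO1 to KO4. Here WT1 was the highest library, the groups overlapped throughout and the log2 fold change was 0.20 ± 0.32 (SE, limma, adjusted p = 0.982). It was 0.45 ± 0.27 (SE) without WT1 and 0.43 ± 0.30 (SE) without KO4, past the threshold in neither fit.

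The C1q molecule holds its chains in equal numbers, so the ratios between them were taken within each library. The ratio of C1qa to C1qb was 0.432 in WT1 and between 0.993 and 1.16 in the other 7 libraries. The ratio of C1qc to C1qb was 0.458 in WT1 and between 0.655 and 0.934 elsewhere. With WT1 the ratio of C1qa to C1qb averaged 0.930 ± 0.340 in WT and 1.11 ± 0.0216 in KO (SD, n = 4). On the log2 scale that difference was 0.36 with WT1 and 0.023 without it. For C1qc to C1qb it was 0.33 with WT1 and 0.17 without it. No test was run on these ratios.

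**Figure D2:**
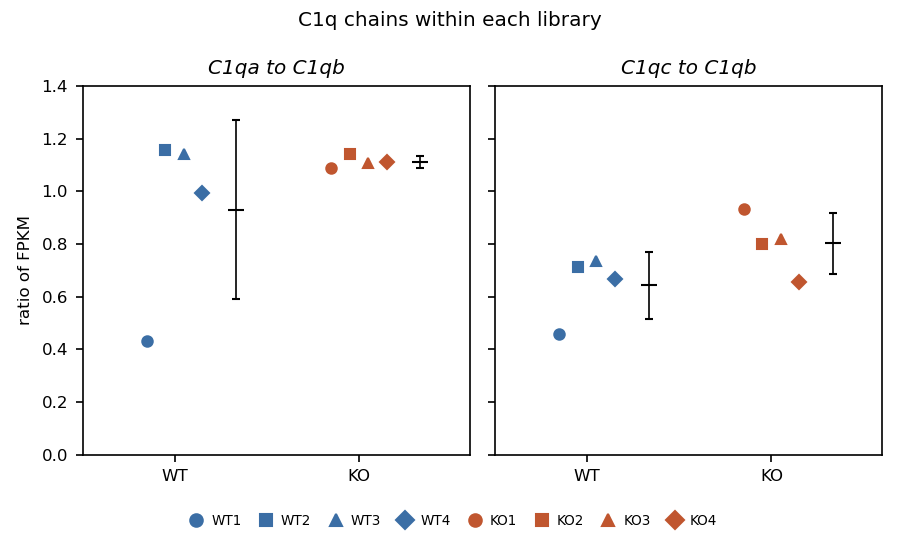
Ratio of FPKM of C1qa to C1qb (left) and of C1qc to C1qb (right) in each of the 8 libraries, with the mean ± SD of WT (blue points) and KO (orange points) as bars on an axis that starts at 0. WT1 is the lowest point in both panels, at 0.432 and 0.458.

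Csf1r, the receptor for CSF1 and IL-34 that keeps macrophages alive, showed the smallest difference between the genotypes. It measured 27.7, 13.5, 11.0 and 14.9 FPKM in WT1 to WT4 and 16.8, 18.1, 19.8 and 13.5 FPKM in KO1 to KO4. WT1 was the highest library and WT3 the lowest, and KO4 was level with WT2. KO minus WT was 0.10 ± 0.28 (SE, limma, adjusted p = 0.983) on the log2 scale, beside a median over all tested genes of 0.10, and it was -0.071 without WT3, 0.37 without WT1 and 0.21 without KO4. Csf1r spans 61100598 to 61132149 on chromosome 18 (GRCm38) and shares exon bases with Hmgxb3 on the opposite strand. Whether strand was used in counting is not given in the sources used here, so reads of both genes may be mixed. Of its ligands, Il34 was higher in KO at a log2 fold change of 0.48 ± 0.20 (SE), past the unadjusted threshold but not after adjustment (limma, adjusted p = 0.947), while Csf1 gave -0.11 ± 0.20 (SE).

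Cx3cr1, the fractalkine receptor, did not follow the other 9 genes. It measured 1.03, 1.56, 1.61 and 1.89 FPKM in WT1 to WT4 and 1.28, 1.33, 6.36 and 2.97 FPKM in KO1 to KO4. KO3 was higher than any other library, while KO1 and KO2 lay inside the WT range. The difference on the log2 scale was 0.66 ± 0.49 (SE, limma, adjusted p = 0.947). Without KO3 it was 0.20 ± 0.38 (SE), and leaving out each other library in turn gave 0.49 to 0.94. KO3 also held the highest level of skeletal muscle genes, with Myh4, a fast muscle myosin, at 23.9 FPKM there and between 0.0184 and 2.34 FPKM elsewhere. The part of that muscle RNA in the Cx3cr1 value was not tested. Cx3cr1 shares exon bases with Gm33858 on the opposite strand. Its ligand gene Cx3cl1 gave a log2 fold change of 0.70 ± 0.45 (SE), not past the threshold.

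Adgre1 encodes the F4/80 antigen, a surface receptor used to stain mouse macrophages. It measured 9.14, 3.20, 4.04 and 4.49 FPKM in WT1 to WT4 and 5.16, 7.93, 7.25 and 3.97 FPKM in KO1 to KO4. WT1 was the highest library and WT2 the lowest, with a log2 fold change of 0.28 ± 0.35 (SE, limma, adjusted p = 0.973). It was 0.59 ± 0.26 (SE) without WT1 and 0.47 ± 0.36 (SE) without KO4, past the threshold in neither fit, and 0.092 without WT2. Cd68 encodes a lysosomal membrane protein of phagocytes, monocytes and osteoclasts included. It measured 28.99, 5.44, 4.71 and 4.52 FPKM in WT1 to WT4 and 13.9, 11.4, 14.0 and 6.17 FPKM in KO1 to KO4. Every KO library was above WT2, WT3 and WT4, and WT1 was above every KO library. Its log2 fold change was 0.50 ± 0.59 (SE, limma, adjusted p = 0.970). Without WT1 it was 1.13 ± 0.28 (SE), past the unadjusted threshold but not after adjustment (limma, adjusted p = 0.145). Leaving out each other library in turn gave 0.25 (without WT4) to 0.76 (without KO4), past the threshold in none of these fits.

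Aif1 encodes the calcium-binding protein IBA1, which is found in ruffling membranes of macrophages. It measured 1.90, 1.64, 0.738 and 2.05 FPKM in WT1 to WT4 and 2.83, 3.35, 3.05 and 1.66 FPKM in KO1 to KO4. KO1, KO2 and KO3 exceeded all WT libraries and KO4 lay among them. KO exceeded WT by 0.79 ± 0.36 (SE) on the log2 scale, short of the unadjusted threshold (limma, adjusted p = 0.947). It was 1.004 ± 0.36 (SE) without KO4 and 0.90 ± 0.37 (SE) without WT1, past that threshold in both fits. Leaving out each other library in turn gave 0.49 (without WT3) to 0.94 (without WT4), past the threshold only without WT4.

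Cd163, a scavenger receptor, had the largest log2 fold change of the 10 genes. Mrc1, the mannose receptor, measured 9.46, 6.03, 4.45 and 5.79 FPKM in WT1 to WT4 and 11.5, 12.7, 11.5 and 5.54 FPKM in KO1 to KO4. KO1 to KO3 were close to each other and above WT1, while KO4 fell between WT3 and WT4. Its log2 fold change was 0.66 ± 0.32 (SE), short of the unadjusted threshold (limma, adjusted p = 0.947). It was 0.93 ± 0.25 (SE) without KO4 and 0.86 ± 0.29 (SE) without WT1, past that threshold in both fits. Leaving out each other library in turn gave 0.50 (without WT3) to 0.65 (without WT2), past the threshold in none of these fits. Cd163, the receptor that takes up haemoglobin bound to haptoglobin, measured 3.15, 1.32, 0.737 and 1.44 FPKM in WT1 to WT4 and 9.30, 11.8, 9.31 and 1.66 FPKM in KO1 to KO4. KO1 to KO3 were far above WT1, the highest WT library, and KO4 lay below WT1 and just above the other 3, so the groups overlapped by 1 library. The log2 fold change was 2.07 ± 0.65 (SE), a 4.20-fold higher fitted level in KO, past the unadjusted threshold. Over the 14990 genes tested it did not hold after adjustment (limma, adjusted p = 0.947). Without KO4 the fitted level was 6.51-fold higher (limma, adjusted p = 0.404). Leaving out each other library in turn gave a level from 3.41-fold (without WT3) to 5.36-fold (without WT1) higher.

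Of the 10 genes, 1 was called higher in KO (Cd163) and 0 lower, at the study's threshold of an unadjusted p under 0.05. The background was 691 genes called higher of 14990, or 4.61%, and 76 called lower. After Benjamini-Hochberg adjustment limma called 0 genes in the whole table, where 767 had an unadjusted p under 0.05. All 10 log2 fold changes were above 0, with a median of 0.54 against 0.10 over all tested genes. When each library was scaled by its median ratio, the median over all genes was 0.0045 and that of the 10 genes 0.44. Under that scaling 402 genes were called higher and 361 lower, so that 52.7% of the calls were higher instead of 90.1%. Under it the 10 were still all above 0, Csf1r at 0.00069.

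How many of the 10 were called depended on the libraries included. With WT1 to WT3 and KO1 to KO3 only, 5 were called higher (Aif1, C1qa, C1qc, Cd163 and Mrc1) against a background of 4.23%. Without KO4 the same 5 were called, against 5.17%. Both fits leave out KO4 and so are not independent of each other. KO4 was low for most of the 10 genes, with Cd163 at 0.164 and C1qc at 0.403 of the mean of the other KO libraries. Without WT1 the calls were 4 (Aif1, Cd163, Cd68 and Mrc1), against a higher background of 12.1%. Cd163 was called in each of these fits, and no adjusted p of the 10 genes was under 0.05 in any of them. In all 8 libraries the WT and KO values of 0 of the 10 genes were separate, against 3.02% of genes with every KO library higher. With the 6 libraries, a set that also lacks KO4, 5 of 10 were separate with KO higher (C1qa, C1qc, Mrc1, Cd163 and Aif1), against 9.22%.

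**Figure D3:**
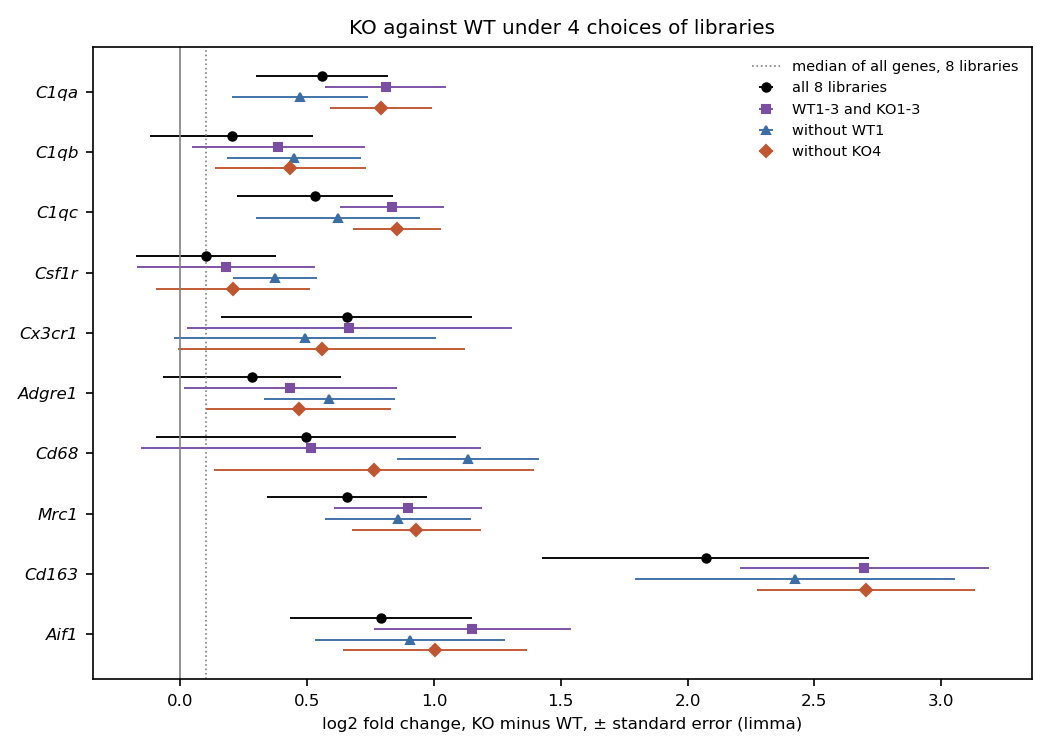
Log2 fold change of KO over WT (x axis, limma, points with bars of 1 standard error) for the 10 genes with all 8 libraries, with WT1 to WT3 and KO1 to KO3, without WT1 and without KO4. The solid line marks 0 and the dotted line the median over all genes of 0.10, and Cd163 lies farthest to the right in all 4 fits.

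The ratio of a gene's FPKM to that of Csf1r in the same library does not depend on how a library is scaled. The added 0.1 makes the tested log2(FPKM + 0.1) differences depend on it for low genes such as Cd163. With all libraries Csf1r had the lowest log2 fold change of the genes described here, at 0.10. All 9 differences from it are therefore above 0 by construction, and their shared sign is no separate evidence. Csf1r was also high in WT1, at 27.7 FPKM against a mean of 13.1 FPKM in the other WT libraries. The ratio of Cd163 to Csf1r was 0.113, 0.0978, 0.0672 and 0.0971 in WT1 to WT4 and 0.553, 0.653, 0.471 and 0.123 in KO1 to KO4. Every KO library was above every WT library, KO4 by the least. On the log2(FPKM + 0.1) scale the difference was 1.97, with an exact two-sided permutation p of 0.0286, the smallest that 4 against 4 allows, and an adjusted p of 0.171 over 9 comparisons. The ratio of Mrc1 to Csf1r lay between 0.341 and 0.447 in WT and measured 0.686, 0.700, 0.584 and 0.411 in KO1 to KO4, a log2 difference of 0.56 (exact permutation p = 0.0571, adjusted p = 0.171). That of Aif1 differed by 0.69 (exact permutation p = 0.0571, adjusted p = 0.171). The other 6 genes gave log2 differences from 0.10 (C1qb) to 0.56 (Cx3cr1), with exact permutation p from 0.20 to 0.514. Of the 9, 0 passed after adjustment, and only Cd163 had an unadjusted p under 0.05. WT1 decided several of these values. Without it the difference was 0.099 instead of 0.46 for C1qa, 0.12 instead of 0.56 for Cx3cr1 and 0.25 instead of 0.43 for C1qc. For Cd68 the difference was 0.76 instead of 0.40 (exact permutation p = 0.0571, adjusted p = 0.193). That of Cd163 was 2.05 without WT1. Without KO4 the differences of Cd163 (2.495) and Mrc1 (0.72) each had an exact permutation p of 0.0286 and an adjusted p of 0.129.

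**Figure D4:**
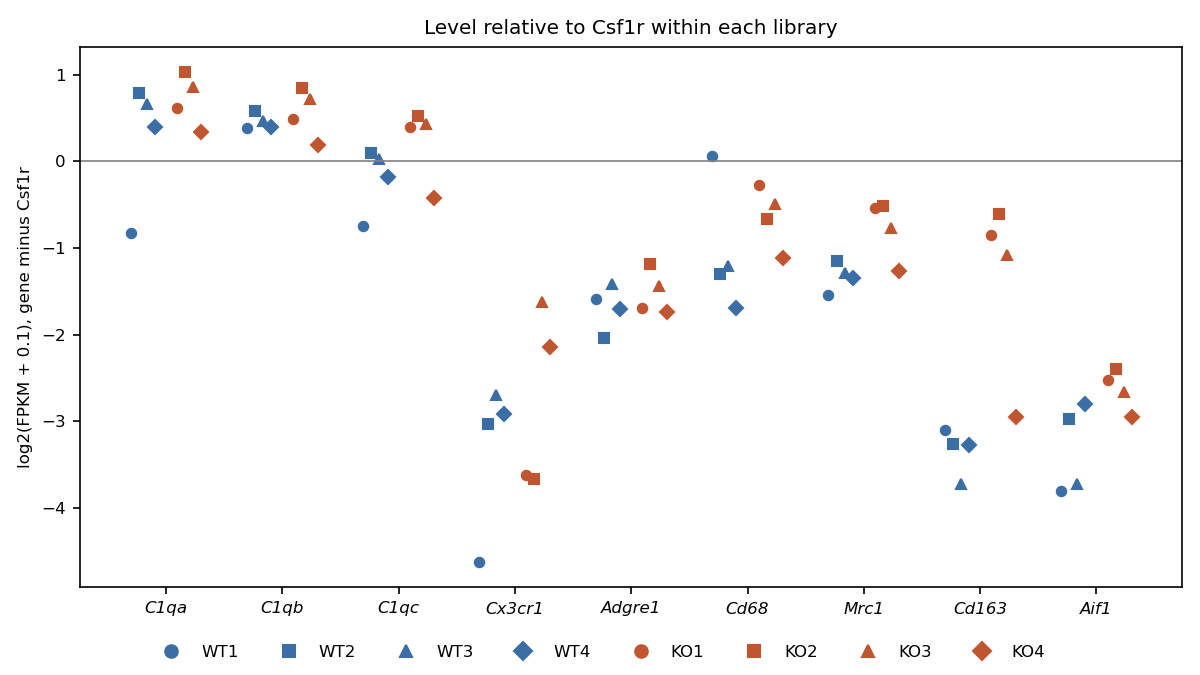
Difference of log2(FPKM + 0.1) between each gene and Csf1r in the same library (y axis), with WT libraries in blue and KO libraries in orange and the symbol giving the replicate number. For Cd163 every KO point lies above every WT point, the closest pair being KO4 at -2.95 and WT1 at -3.10, and for C1qa and Cx3cr1 WT1 lies far below the other WT points.

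Other macrophage genes gave few calls with all 8 libraries and more without WT1, where 12.1% of all genes were called higher. Of 16 further pan-myeloid and macrophage markers, among them Cd53 (log2 fold change 0.93) and Mertk (0.34), 0 were called and the median was 0.65, while 12 were called higher without WT1. Their sum was 1992 FPKM in WT1, 205 to 327 FPKM in the other WT libraries and 513 to 1126 FPKM in KO. Of 12 tested ligands and transcription factors, Il34 and Cebpa (0.71) were called higher and 0 lower, and 4 were called higher without WT1. Of 13 listed genes of resident perivascular-type macrophages, 10 passed the filter on low values. Of these 0 were called, with a median of 0.56, and without WT1 4 of 11 were called higher, with a median of 0.85. Timd4, Cd209f and Vsig4 fell below the filter with all libraries, each with a mean higher in KO than in WT. Siglec1, a sialic acid receptor, gave 1.20 ± 0.55 (SE) and Cbr2, a carbonyl reductase gene, gave 0.62 ± 0.30 (SE) with all libraries. Of 9 genes that mark microglia, the macrophages of the brain, 0 were called, 0 were higher past the threshold without WT1, and the median was -0.054, with Tmem119 at 0.35 and Sall1 at -0.35.

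Genes that work with C1q or mark macrophage activation were examined next. Of 16 complement genes 1 was called, Cfd (factor D of the alternative pathway), higher in KO at 2.38 ± 1.03 (SE), and C4b, which C1q acts upon through its proteases, gave 0.40 ± 0.18 (SE) and was not called. Of 13 tested inflammatory genes 0 were called, with Il1b at 0.95 and Ccl3 at 1.12. Of 8 tested genes of alternative activation and clearance 2 were called higher, the IL-4 receptor chain Il4ra at 0.50 ± 0.16 (SE) and the lipid scavenger receptor Cd36 at 1.34 ± 0.50 (SE). Without WT1 the counts called higher were 5 of 16 complement genes, 2 of 14 inflammatory genes and 5 of 8 genes of alternative activation and clearance. With all libraries the adjusted p (limma) was 0.947 for Cfd, Il4ra and Cd36 alike.

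Markers of blood and marrow cells also differed between the libraries, and no monocyte, neutrophil, erythroid or B lineage marker was at 0 in any of the 8. Erythroid markers summed to 7470, 2383, 450 and 3601 FPKM in WT1 to WT4 and to 6538, 8518, 12108 and 4905 FPKM in KO1 to KO4, and 2 of 8 were called higher (Hbb-bt and Alas2), or 8 of 8 without WT1. Of 8 B lineage markers 4 were called higher (Vpreb1, Vpreb3, Igll1 and Pax5), or 7 of 8 without WT1, with sums of 1.35 to 50.2 FPKM in WT and 31.9 to 92.2 FPKM in KO. Of 12 neutrophil and 8 monocyte markers 0 were called with all libraries, and all 12 and all 8 were called higher without WT1. Those with the smallest p were Prtn3 (2.47) and Ly6g (2.18) among the neutrophil and Hp (1.69) and Plac8 (2.08) among the monocyte markers, as log2 fold changes with all libraries. Monocyte markers summed to 9.55 FPKM in WT3, 84.9 in WT2, 98.8 in WT4 and 993 in WT1, against 204 to 537 FPKM in KO.

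Markers of osteoclasts, dendritic cells, T and NK cells, bone, muscle and the cochlea were examined last. Of 8 tested osteoclast markers Ctsk (1.72) and Tnfrsf11a (0.41) were called higher, of 7 tested dendritic cell and MHC class II genes H2-Ab1 (0.91) but not Ciita (0.94), and of 4 tested T and NK cell markers Cd4 (0.97) but not Klrd1 (0.93). Without WT1 the counts called higher were 7 of 8, 4 of 7 and 3 of 4. Of 10 bone and skeletal muscle markers 0 were called, with Dmp1 at 0.87 and Myh4 at 2.92, and 2 of 10 without WT1. Of 13 cochlear markers 0 were called, with Kcnq1 at -0.51 and Kcne1 at -0.49, and 0 were called higher without WT1. Their median log2 fold change was -0.11 with all libraries and -0.33 without WT1, where 1112 genes over all were called lower. Lower calls among the cochlear markers were not counted in that fit. In each of the blood, marrow, osteoclast, bone and muscle lists WT1 was the highest and WT3 the lowest WT library, as they were for the sum of the 10 macrophage genes (150 and 71.1 FPKM). KO4 held more erythroid and neutrophil marker RNA than WT2, WT3 and WT4, at a Cd163 level of 1.66 FPKM. WT1 held more of both than KO1, at a Cd163 level of 3.15 FPKM against 9.30 FPKM. It held less B lineage marker RNA than KO1 (50.2 against 59.8 FPKM). It also held less erythroid marker RNA than KO2 and KO3 (7470 against 8518 and 12108 FPKM). The part of marrow RNA in the levels of the 10 genes was not tested.

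**Figure D5:**
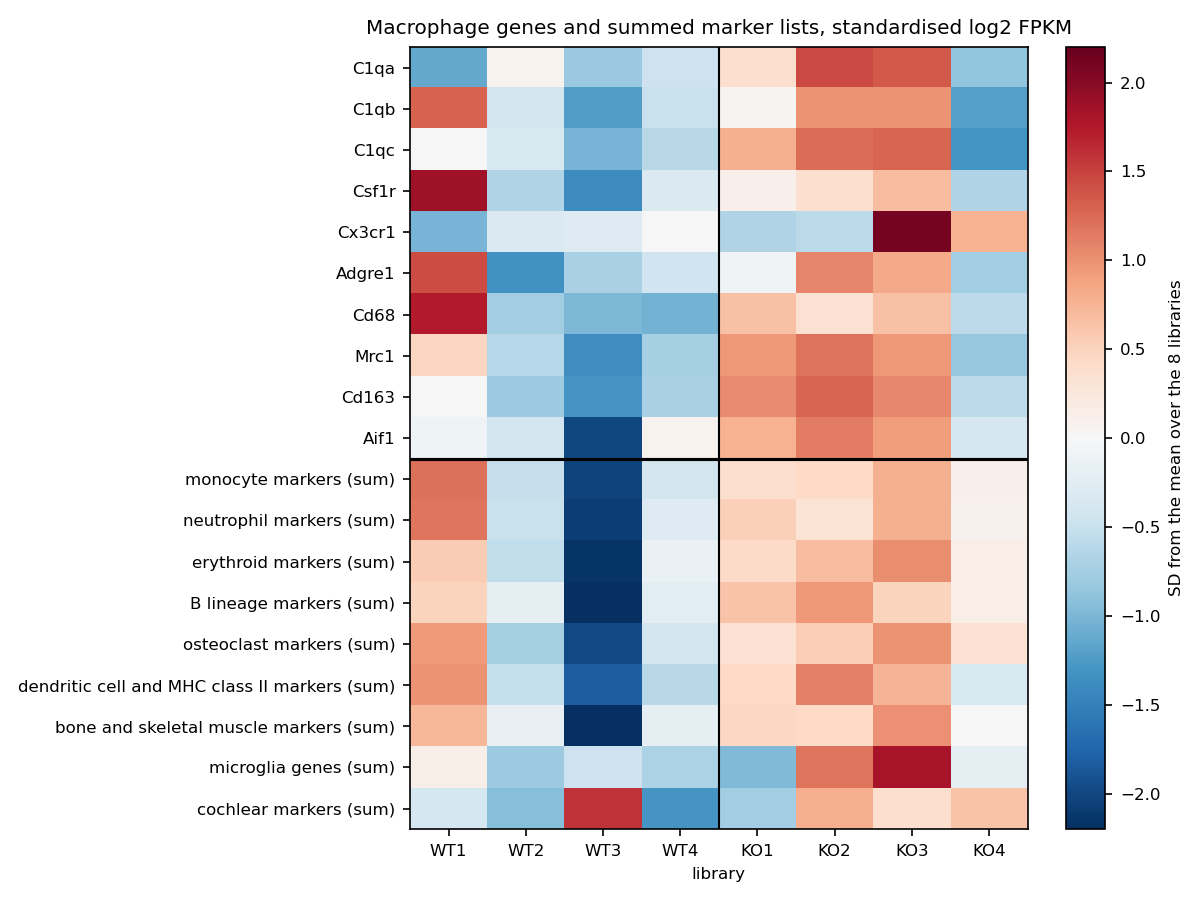
Colour gives the standardised log2 FPKM of each of the 10 genes (above the line) and of the summed FPKM of 9 marker lists (below the line), in SD from the mean over the 8 libraries, with WT libraries left and KO libraries right of the vertical line. WT3 is the lowest library in the blood, marrow and bone lists, KO3 is the highest for Cx3cr1, and KO4 is low for most macrophage genes while its marker sums are near the mean.

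Across the 8 libraries the 10 genes differed in how closely they followed each other. Mrc1 correlated best with the mean of the other 9 (Pearson's r = 0.961 on log2 values, n = 8), followed by Cd163 (0.922) and C1qc (0.912). C1qa gave 0.638 with WT1 and 0.928 without it, and Cx3cr1 gave 0.0604 and 0.206. Genotype and tissue makeup differ between these libraries, so the values are descriptions. Over 14116 other genes, those most like the mean of the 10 were Gpank1 (r = 0.988), the haem-binding protein gene Hebp1 (0.979), the linker histone gene Hist1h1d (0.977), the red cell membrane protein gene Stom (0.977), Eif4a1 (0.976) and Pdzk1ip1 (0.975). Eif4a1, which encodes a translation initiation helicase, lies 782 bases from Cd68 on chromosome 11, at 69666936 to 69672423. It measured 50.9, 42.8, 36.4 and 44.7 FPKM in WT1 to WT4 and 53.0, 56.2, 55.2 and 41.3 FPKM in KO1 to KO4. Gpank1 lies 46176 bases from Aif1 on chromosome 17, and ranged from 3.99 to 8.07 FPKM.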

How the data were processed

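Cochlear RNA-seq libraries of WT (4) and KO (4) mice were grouped by the labels. Per the labels, strand-specific libraries were made after removal of ribosomal RNA, with RNase R, an enzyme that digests linear RNA, named for fragmentation. The authors mapped reads with Hisat2 and tested with DESeq2, and the deposited values are FPKM per gene, without counts, so read depth is unknown and the count test could not be repeated. The submitters' processing notes name mm9, but 19771 of 21895 genes have the coordinates of GENCODE on GRCm38, which were used here. Summed FPKM was 249221 to 288695 per library.

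Values were compared as log2(FPKM + 0.1), which understates changes of low genes, over genes with a mean of at least 0.5 FPKM, with limma 3.58.1 in R 4.3.3 (trended variance, genotype only, two-sided). Called means an unadjusted p under 0.05, and adjusted p-values are Benjamini-Hochberg over all tested genes. The fit was tested on simulated data with independent genes and no outlying library, so that test does not cover a library such as WT1. Exact permutation tests compared differences from Csf1r. Alternatives covered the pseudocount, filter, scaling, trend, replicate block and libraries left out. The 10 genes and all gene lists were chosen with earlier results of these data known. Named from each list were the genes called, or those with the smallest p until 2 were named, and the 6 genes most like the mean of the 10. Other genes named, among them Coch, Csf1 and Cx3cl1, were chosen after their values were seen.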

Additional observations from a re-analysis of the deposited data

Results flagged for a closer look

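Each group of 4 libraries was checked for a library whose gap to the nearest other exceeded Dixon's critical share of the group's range. Of 42 such groups 3 had one, where chance gives about 5% of groups. Cd68 was 28.99 FPKM in WT1 and between 4.52 and 5.44 FPKM in the other WT libraries. Mrc1 was 5.54 FPKM in KO4 and between 11.5 and 12.7 FPKM in the other KO libraries. C1qc relative to Csf1r was -0.42 in KO4 on the log2 scale and between 0.39 and 0.53 in the other KO libraries.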

How the results depend on the processing

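Cd163 was called higher in KO under all 17 alternatives, with log2 fold changes from 1.62 (pseudocount 1) to 2.70 (without KO4). Of 170 single-gene values under alternatives, 148 kept direction and side of the threshold, 21 passed it where the reported fit did not, and 1 turned, Csf1r at -0.071 without WT3 (0.37 without WT1, the highest with 1 library left out and no other change). Most of the 21 came from fits that leave out WT1 or KO4, and the alternatives share libraries. The number of the 10 genes called was 2 with a pseudocount of 1 (734 of 14990 genes called higher over all). It was 2 with no variance trend (671 of 14990) and 5 with WT1 to WT3 and KO1 to KO3 only (632 of 14956). It was 6 with median-ratio scaling and WT1 left out (1940 of 15014). Leaving out each library gave 1 to 5 (4 without WT1, 5 without KO4), and 347 to 2922 calls over all genes, against 767: 2922 without WT1, 377 without KO2 and 347 without KO3. Median-ratio scaling with WT1 left out gave 3253. Quantile normalization gave 378 higher and 547 lower calls, a share of 40.9% higher, and a median over all genes of -0.037.

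With the replicate block 2 of the 10 were called (C1qa and Cd163), beside 738 of 14990 genes called higher over all. Same-numbered libraries gave correlations of 0.42, -0.24, -0.17 and 0.21 in their deviations from the group means. The own number was best for replicate 1 only. These values cannot show whether same-numbered libraries were handled together. The log2 difference of C1qa to C1qb between genotypes ranged from 0.023 to 0.50 and that of C1qc to C1qb from 0.17 to 0.45 over alternatives chosen after seeing the data. Without counts, the depth behind low values such as Aif1 and Cx3cr1 is unknown. The cause of these differences was not tested.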
